A study of Populus cathayana with 4 samples.

Results

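The leaves of male Populus cathayana trees under ambient solar UV-B were compared with those of males under reduced solar UV-B. In this poplar species the sexes are on separate trees. The comparison used the 2 male libraries of the 4 in the study, taken by their labels. Of the 19100 gene models in the count table, here called genes, 10741 had at least 10 counts summed over the 4 libraries and were tested.

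UV-B is the short-wave, high-energy part of sunlight that reaches the ground. In Arabidopsis it is sensed by the photoreceptor UVR8, which acts with the ubiquitin ligase COP1 and the transcription factor HY5 to switch on chalcone synthase and other enzymes of flavonoid sunscreens, along with DNA repair and antioxidant enzymes. Leaves under UV-B also commonly change their growth, their cell walls and their surface lipids.

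The plants were cuttings grown singly in pots of soil in a greenhouse, and the UV-B treatment lasted 100 days of 1 growing season. The males of one group received ambient solar UV-B and those of the other group decreased solar UV-B. RNA came from the fourth fully expanded leaves, and equal amounts from 9 plants were pooled into 1 library a group. The females of both UV-B levels, treated and pooled the same way, are given beside the males. Each library ran on its own flow cell lane, so lane and group cannot be told apart. With 1 library a group there is no replicate check on any value below, and the tests and intervals cover counting error only. The pools show neither the spread between plants nor the number of plants that shared a difference.

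The tags assigned to genes numbered 636702 in the reduced UV-B male library and 722533 in the ambient one. Levels are given as CPM, that is, tags scaled to a library total of 1000000 without a length correction, so that 3 counts are 0.70 CPM in males under reduced UV-B and 0.71 CPM in males under ambient UV-B. These tags were 14.9% of the library total in males under reduced UV-B and 17.2% in males under ambient UV-B, against 15.0% and 14.4% in females. Genes at 0 counts numbered 7001 in the ambient male library, against 5431 to 5948 in the others. That library therefore stood apart in how many of its tags the table assigned to genes, and ratios to the library total and to the assigned tags differ. TMM factors, which centre the bulk of the genes, lowered each male log2 ratio by 0.21 and moved the median of all tested genes from 0.11 to -0.10.

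The leaf label was checked against marker genes. The 31 tested mesophyll markers, which are antenna proteins, photosystem and Rubisco genes, plastocyanin and carbonic anhydrase, summed to 7676 CPM in males under reduced UV-B and 8738 under ambient UV-B. The 17 tested markers of developing wood summed to 145.9 and 83.9 CPM. The 5 tested MADS-box genes, taken as flower markers, summed to 86.17 and 134.1. Most of this was 1 gene resembling AGL24 (Potri.002G105600.1), with 359 counts under reduced and 539 under ambient UV-B. Markers of dividing tissue, 50 tested cyclins, histones and an expansin, summed to 621.6 and 858. Of these 50, 0 were called with library totals and 1 was called lower with TMM, and the expansin (Potri.001G240900.1) had 25 and 5 counts. The histone entries take in enzymes that modify histones. Leaf markers summed to more than the other sets in both libraries. In pooled leaves, fewer cells of a type and less RNA per cell cannot be told apart.

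Calls required an exact test on the pair of counts with an adjusted p under 0.001, together with a difference of at least 2-fold in CPM. Scaled by library totals, 264 genes were called higher under ambient UV-B (2.46% of those tested) and 157 lower (1.46%). With TMM factors 117 were higher (1.09%) and 232 lower (2.16%). Calls that held with both scalings numbered 117 higher (1.09%) and 157 lower (1.46%). In what follows, "rose" and "fell" are used only of these genes. TMM lowered every male ratio, so it filtered the higher calls only, and all 157 lower calls passed again. A rise thus had to pass a stricter limit than a fall, and counts of the 2 kinds are not on equal terms. That the lower calls held with both scalings says little of how firm they are. The shares of 1.09% and 1.46% are the background for called members of the groups below. Groups picked by description can hold only described genes, those whose description names a protein. Of the 1693 tested described genes, 18 rose and 42 fell (2.48%). Log2 ratios are ambient over reduced, scaled by library totals, and those in brackets carry exact 95% counting intervals. The genes that rose had a median log2 ratio of 1.69, and 8 of the 117 differed at least 8-fold. Those that fell had a median of -2.09, and 23 of 157 differed at least 8-fold. Few of them had a description that names a protein: 18 of those that rose and 42 of those that fell.

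**Figure D1:**
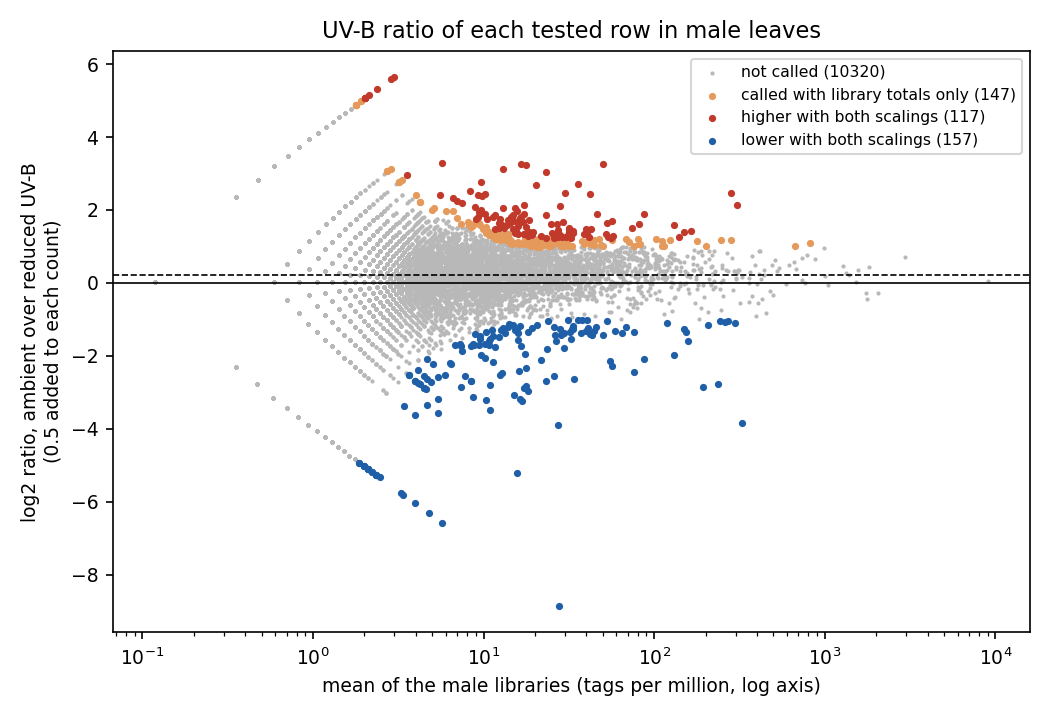
Log2 ratio of ambient over reduced UV-B for each tested gene in male leaves (vertical axis, 0.5 added to each count), against the mean of the male libraries in CPM (log axis). Red and blue points are the 117 genes that rose and the 157 that fell with both scalings, orange points the 147 called higher with library totals only; the dashed line marks the 0 of the TMM scaling.

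The share of genes called depended on how many tags they had. Among the 4013 genes with 10 to 29 counts over the 4 libraries, 0.224% were called higher and 0.224% lower. Among the 1022 genes with at least 300 and fewer than 1000 counts, the shares were 8.9% and 3.62%. For sparsely counted genes only very large differences could pass, and their lack of a call says little. In the summed tags, the 264 genes called higher went from 5234 to 13360 CPM and the 157 called lower from 8022 to 2516. The 10320 genes without a call went from 133200 to 154400 CPM, so most of the net difference in summed tags lay in them.

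Genes of light signalling and of the best known UV-B targets were examined first. The 4 tested light-signalling genes, phytochromes and COP1-like ubiquitin ligases, held no call. None of the 4 is described as UVR8 or HY5, so they say nothing of those 2 steps. Phytochrome B2 (Potri.010G145900.2), a red light receptor, had 42 counts under reduced and 50 under ambient UV-B, a log2 ratio of 0.28 (-0.34 to 0.90). The COP1-like gene Potri.015G143200.1 had 5 and 11 counts, and the other, Potri.012G140200.1, had 0 in both male libraries and 23 and 18 in females. At such counts a 2-fold difference in the COP1-like genes was not detectable.

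Flavonoid enzymes make UV-absorbing leaf pigments. Of 15 tested members, 1 was called higher and only with library totals, and the median log2 ratio was 0.51 against 0.11 for all tested genes. Chalcone synthase performs the first committed step of the pathway. Its most abundant gene, Potri.003G176800.1, had 93 counts under reduced and 133 under ambient UV-B, a log2 ratio of 0.54 (0.15 to 0.94) without a call. A second chalcone synthase, Potri.001G051600.1, went from 50 to 104 counts and lost its call with TMM. The last, Potri.001G051500.1, had 50 and 58. All 3 were thus higher in the ambient library, by amounts that did not pass with both scalings. In females the same 3 genes had 28 and 23, 20 and 39, and 13 and 13 counts.

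Upstream of them, the abundant phenylalanine ammonia-lyase fell. This enzyme opens the phenylpropanoid pathway that feeds both flavonoids and lignin. Potri.006G126800.1 had 1513 counts under reduced and 711 under ambient UV-B, a log2 ratio of -1.06 (-1.19 to -0.93). In females it had 396 and 215 counts, a ratio of -0.86 without a call. The other gene of the enzyme, Potri.016G091100.1, had 468 and 515 counts, a log2 ratio of 0.16 that became -0.05 with TMM. Summed over both genes, the enzyme's transcript went from 462.6 to 291.4 CPM in males and from 145.2 to 89.94 in females. With both spellings of the enzyme's name in the table, the 6 tested genes of the pathway's entry steps held 1 that fell. Of described genes 2.48% fell. The median log2 ratio of the 6 was -1.22, or -0.73 with each 0 taken as 3 counts, and most of the 6 were sparsely counted.

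Genes with the ontology term for response to UV held no call with library totals among 18 tested, with a median log2 ratio of -0.09, and 1 was called lower with TMM. The most abundant, Potri.001G256900.1, which has no protein description, had 2478 counts under reduced and 4139 under ambient UV-B, a log2 ratio of 0.77 (0.69 to 0.84) that missed the 2-fold limit. In females it went the other way, with 5886 and 4647 counts. DNA repair genes, 30 tested of 54 in the table, also held no call, and their median of 0.11 equalled that of all tested genes. Together the 30 repair genes had 368 and 443 counts in the male libraries, so few tags stood behind each.

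Antioxidant and detoxifying genes changed in single members and in both directions. Glutathione transferases attach glutathione to reactive compounds. Of 16 tested, 0 rose and 4 fell, against 1.09% and 1.46% of all tested genes. Among described genes 2.48% fell. GSTU20 (Potri.008G175000.1), of the tau class, had 131 counts under reduced and 3 under ambient UV-B, a log2 ratio of -5.42 (-7.72 to -3.84). Females showed the reverse, with 21 and 155 counts, and the male and female ratios were called different. The gamma class gene EF1Bgamma2 (Potri.004G226300.1) had 48 counts and then 0, against 71 and 76 in females. It fell, with a male log2 ratio of -3.97 taking the 0 as 3 counts and a 95% counting interval below -3.62.

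The other glutathione transferases that fell were GSTU31 (Potri.011G140700.1), from 29 to 4 counts, and GSTU52 (Potri.010G070900.1), from 92 to 37. Neither was abundant in females, where they had 0 and 0, and 4 and 4 counts. The most abundant member did not follow them. GSTU30 (Potri.011G140800.1) had 868 and 1034 counts in males, a log2 ratio of 0.28 without a call. The 10 tau class genes summed to 289.8 and 306.6 CPM, a difference smaller than that between the scalings. The neighbour of GSTU20 by its identifier, GSTU13 (Potri.008G175100.1), had 84 and 158 counts, also without a call. Near-identical copies in this family could share tags, and how the authors treated such tags is not given in the sources used here.

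Among thiol oxidoreductases, the glutaredoxin Potri.010G021800.1 rose from 31 to 114 counts, a log2 ratio of 1.90 (1.32 to 2.53). It was also called higher in females, which had 36 and 184. Thioredoxin h (Potri.017G076700.1) fell from 87 to 38 counts. The 30 tested thioredoxins and glutaredoxins had a median log2 ratio of 0.40, with 23 above 0 and 7 below, and no other member was called. The 15 members with at least 100 counts had a median of 0.35, against 0.32 for the 3478 tested genes with as many counts. With library totals 6424 of all 10741 tested genes lay above 0 and 4317 below. The 10 tested peroxiredoxins, glutathione enzymes and ascorbate transporters held no call. Glutathione reductase (Potri.015G037800.1), which recycles glutathione, had 114 and 215 counts in males and 275 and 199 in females.

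Of 3 tested class III peroxidases, which use phenolic substrates, 1 fell. Potri.016G125000.1 went from 62 to 9 counts. The table's antioxidant activity term held 0 that rose and 3 that fell among 46 tested, against 1.09% and 1.46% of all tested genes. The largest of the 3 was Potri.006G142600.1, a gene without a protein description that carries both the antioxidant and the cell wall term. It had 1778 counts under reduced and 255 under ambient UV-B, a log2 ratio of -2.78 (-2.97 to -2.59). Females had 456 and 14 counts, and with library totals their ratio was called the lower of the pair. Metallothionein 3a (Potri.011G118900.1), a small metal-binding protein, rose from 486 to 2104 counts. Its female counts of 1173 and 4457 gave nearly the same ratio, with log2 values of 2.14 in males and 1.95 in females.

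**Figure D2:**
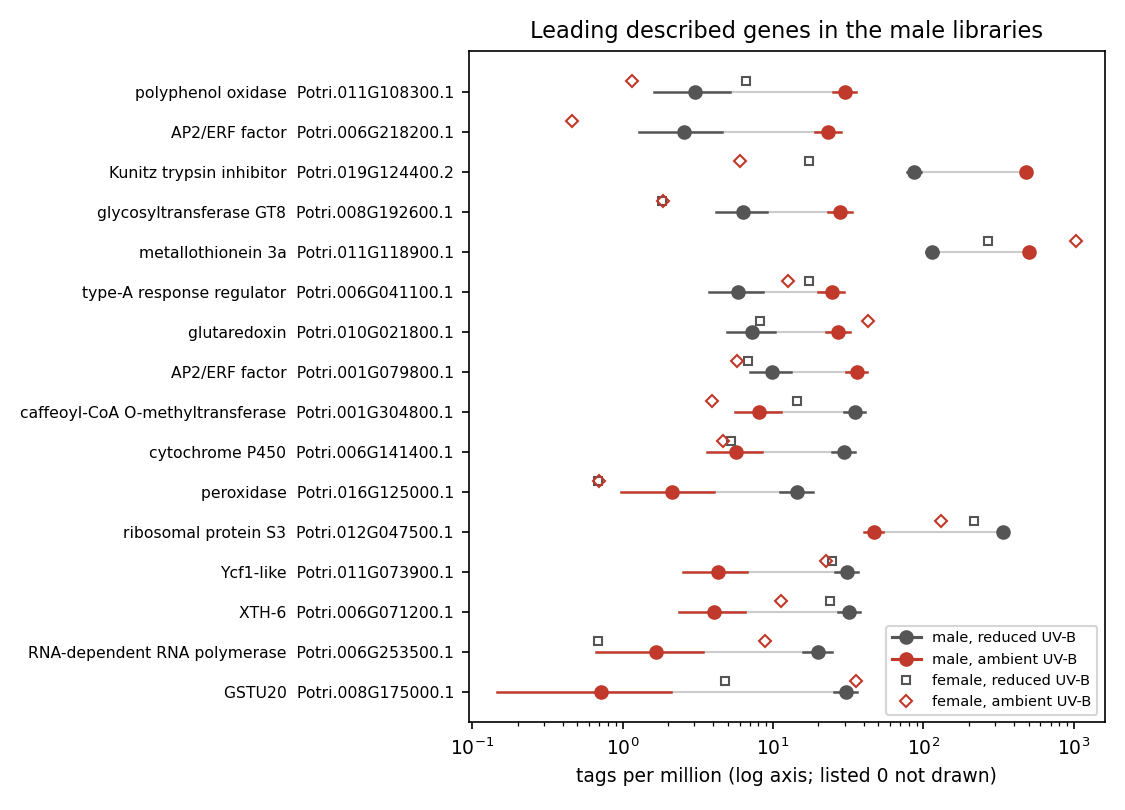
CPM (log axis, tags scaled to the library total) of the 8 described genes with the largest and the 8 with the smallest log2 ratios among those that rose or fell with at least 50 counts in the higher male library. Filled circles are the male libraries with exact 95% Poisson intervals of the counts, open symbols the female libraries. Genes with open symbols in the opposite order to the filled ones include polyphenol oxidase, the Kunitz inhibitor, GSTU20 and the RNA-dependent RNA polymerase.

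Genes of defence against herbivores held some of the largest gains. Polyphenol oxidase oxidises phenolics to protein-binding quinones in damaged leaves. Potri.011G108300.1 rose from 13 to 126 counts, a log2 ratio of 3.30 (2.48 to 4.25), while females had 29 and 5. This was 1 of 3 polyphenol oxidase genes and not the main one. The most abundant, Potri.001G388900.1, had 626 and 340 counts in males, a log2 ratio of -0.86 that was called lower with TMM only, and Potri.011G047300.1 had 57 and 41. Summed over the 3, polyphenol oxidase transcript was lower under ambient UV-B, with 162.5 and 120.5 CPM.

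Kunitz-type inhibitors block digestive proteases of insects. Of 10 tested, 1 rose with both scalings, 2 more were called higher with library totals only, and 1 fell. Over all tested genes the shares that rose and fell were 1.09% and 1.46%. Potri.019G124400.2 rose from 372 to 2014 counts, a log2 ratio of 2.46 (2.30 to 2.63), against 76 and 26 in females. KPI-C1 (Potri.019G124600.1) had 476 and 1033 counts, and its log2 ratio of 1.14 lost its call with TMM. Potri.004G000400.1 had 6 and 29 counts and also lost its call. Potri.019G088200.1 fell from 17 counts to 0 and had 0 in both female libraries.

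In the sum of the family, Kunitz transcript went from 262.5 to 785.3 CPM in males, while females had 53.5 and 65.44. Most of the male gain was that of Potri.019G124400.2. The wider list of 19 protease inhibitors and defence proteins had 2 that rose and 1 that fell, with a median log2 ratio of -0.05. Over all tested genes 1.09% rose and 1.46% fell, and 2.48% of described genes fell. Immune receptor genes, 81 tested, held 0 that rose or fell and had a median of 0.03.

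Transcription factors of the AP2/ERF family, which respond to ethylene and to many stresses, rose in 5 of 55 tested genes and fell in 0. Over all tested genes 1.09% rose and 1.46% fell. Potri.006G218200.1 rose from 11 to 98 counts and Potri.001G397200.1 from 114 to 362. Potri.001G079800.1 rose from 42 to 152 and Potri.003G081200.1 from 27 to 94. Potri.006G138700.1 was at 0 under reduced UV-B and had 24 counts under ambient UV-B, a log2 ratio of 3.03 with the 0 taken as 3 counts. Females had few tags of most of these, with 0 and 2, 60 and 51, 30 and 25, 7 and 8, and 0 and 0 counts in the same order. The 55 genes had a median log2 ratio of 0.51, or 0.31 with each 0 taken as 3 counts, with 35 above 0 and 20 below, and summed to 415.7 and 648.9 CPM. Of all 10741 tested genes, 6424 had a ratio above 0 and 4317 below, so more genes above 0 than below is no trait of this family.

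Ethylene genes beside these factors went both ways. Some descriptions name only aminocyclopropane carboxylate, the precursor of ethylene, and do not tell a synthase from an oxidase. Potri.002G224100.1 of these fell from 82 to 37 counts, and Potri.001G099400.2 had 46 and 97 counts with a call that ended with TMM. Ethylene-insensitive 3b (Potri.004G197400.1), a transcription factor that carries the ethylene signal, had 576 and 716 counts without a call.

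NAC transcription factors fell in 2 of 28 tested genes and rose in 0, against 1.46% and 1.09% of all tested genes. Among described genes 2.48% fell. Potri.019G031400.1 fell from 101 to 33 counts and Potri.017G063300.1 from 83 to 35, while females had 14 and 27, and 5 and 12. The family's median log2 ratio was 0.05. Transcription factor bHLH71 (Potri.003G093200.1) fell from 60 to 20 counts. Among 9 WRKY factors, which act in defence, WRKY 18 (Potri.003G169100.1) had 67 and 30 counts and was called lower with TMM only.

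Cytokinin is a hormone of cell division and leaf longevity, and type-A response regulators are induced by it and dampen its signal. Of 4 tested, 1 rose, against 1.09% of all tested genes. All 4 tested genes had a log2 ratio of at least 1.58. Potri.006G041100.1 rose from 25 to 103 counts, a log2 ratio of 2.07 (1.43 to 2.76). Potri.008G193000.1 had 18 and 53 counts and Potri.001G027000.1 had 2 and 21, both called with library totals only. Potri.002G082200.1 had 8 and 27 without a call.

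Summed over the 4, type-A transcript went from 12.38 to 48.49 CPM in males and was 49.17 and 41.39 in females. The low value was thus that of males under reduced UV-B, and the other 3 libraries lay close together. The group was picked after its values were seen, and no test was made of it. Type-B regulators, which carry the cytokinin signal to genes, held no call among 4 tested, with at most 7 counts in any male library, too few for a call. Cytokinin oxidase degrades the hormone. Its abundant gene Potri.002G030500.1 had 1323 counts under reduced and 777 under ambient UV-B, a log2 ratio of -0.74 (-0.87 to -0.61) under the 2-fold limit, and Potri.005G232300.1 had 0 and 14, called with library totals only. The 3 tested isopentenyltransferases, which make cytokinin, had log2 ratios between 0.24 and 0.54 without a call.

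Auxin genes, 37 tested, had 2 that fell and 0 that rose with both scalings. Of all tested genes 1.46% fell, and of described genes 2.48%. Both auxin genes that fell belong to the SAUR family of small auxin-induced proteins linked to cell expansion. Potri.004G165300.1 fell from 57 to 17 counts and Potri.001G306300.1 from 26 to 4. Another SAUR gene, Potri.019G002200.1, had 59 and 117 counts, called higher with library totals only.

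Among cell wall genes the called members mostly went down. XTH-6 (Potri.006G071200.1), an enzyme that cuts and rejoins xyloglucan in growing walls, fell from 138 to 17 counts, with an interval of the log2 ratio from -3.82 to -2.26. In females it had 105 and 49, also called lower, and the ratio in males was called the lower of the pair. The 12 tested primary wall genes had 1 that fell and a median log2 ratio of -1.23, or -0.88 with each 0 taken as 3 counts. Of all tested genes 1.46% fell, and of described genes 2.48%. The 4 cellulose synthases had ratios from -0.97 to -0.11 without a call. Pectinesterase (Potri.014G149700.1), which modifies pectin and is the most abundant member, stood against them. It had 9582 and 15347 counts in males, a log2 ratio of 0.71 below the 2-fold limit, and 15133 and 8872 in females.

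Lignin genes, 22 tested, had 0 that rose and 2 that fell, against 1.09% and 1.46% of all tested genes. Among described genes 2.48% fell. The median log2 ratio of the 22 was -0.85, or -0.39 with each 0 taken as 3 counts. The 5 members with at least 100 counts had a median of 0.31. The sign of the median thus turned with the sparsely counted members. Caffeoyl-CoA O-methyltransferase (Potri.001G304800.1), which methylates lignin precursors, fell from 150 to 34 counts and was called lower in females too, with 63 and 17. Laccase 1c (Potri.006G097100.1) fell from 16 counts to 0. Laccases are oxidases that link lignin units. The coniferylaldehyde 5-hydroxylase Potri.007G016400.1, on the branch to syringyl lignin, was not in the list and rose from 103 to 245 counts. Its females had 157 and 152.

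The developing-wood markers are not independent of these lists, since all 17 tested markers are members of the primary wall or lignin list. Of the 17, 15 had a log2 ratio below 0, with a median of -0.89, and 2 fell. Of all tested genes 1.46% fell, and of described genes 2.48%. A ratio below 0 was found in 4317 of all 10741 tested genes. Their sum went from 145.9 to 83.9 CPM in males and from 89.92 to 25.43 in females. Laccase 1c, 1 fasciclin-like gene and 1 caffeoyl-CoA O-methyltransferase-like gene were at 0 in males under ambient UV-B. Both genes that fell, caffeoyl-CoA O-methyltransferase and laccase 1c, were described above. The part of the share of woody or vein tissue in these results was not tested.

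Genes with the ontology term for the cell wall, 104 tested, had 1 that rose and 8 that fell with both scalings, or 7.69% lower. Over all tested genes 1.09% rose and 1.46% fell. The cell wall term was picked after its values were seen. Apart from Potri.006G142600.1, given above, the genes that fell include Potri.006G264500.1, from 181 to 69 counts. They also include Potri.014G018900.1, which carries the endopeptidase term too, from 170 to 55. Potri.006G068900.1, another with the endopeptidase term, fell from 130 to 17. The gene that rose was Potri.001G335700.2, from 24 to 80 counts. The median log2 ratio of the 104 was -0.05, and 50 had a ratio above 0 and 54 below, against 6424 and 4317 of all 10741 tested genes.

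Genes annotated to lipid localization, a term that takes in lipid transfer proteins, fell in 5 of 29 tested genes, or 17.2%, and rose in 0. Over all tested genes 1.46% fell. None of the 5 has a protein description in the table. Potri.018G025900.1 was the largest, with 2605 counts under reduced and 180 under ambient UV-B, a log2 ratio of -3.83 (-4.06 to -3.61). Females matched it closely, with 4419 and 325 counts and a ratio of -3.74. Potri.018G126000.1 had 235 counts and then 0. Its log2 ratio was -6.27 with the 0 taken as 3 counts, with a 95% counting interval below -5.96. Females had 40 and 2 counts of it.

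Potri.006G065500.1 fell from 250 to 39 counts in males and had 425 and 25 in females. Potri.006G256100.1 fell from 189 to 31 and had 83 and 12 in females. In these 4 genes the female libraries were also called lower under ambient UV-B. The fifth, Potri.016G135400.1, fell from 92 to 16 in males and had 27 and 44 in females, and with library totals the sexes were called different. Abundant members without a male call pointed both ways. Potri.016G015500.1 had 2196 and 1146 counts, called lower with TMM only, and Potri.004G086600.1 had 1738 and 2396.

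The 29 genes had a median log2 ratio of -0.87, which was -0.35 with each 0 taken as 3 counts. Their summed transcript went from 1818 to 1008 CPM in males and from 1634 to 290.9 in females. This term was picked after its values were seen. The 10 tested genes of wax, cutin and fatty acid synthesis, chosen by description, held no call, with a median of -0.32.

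**Figure D3:**
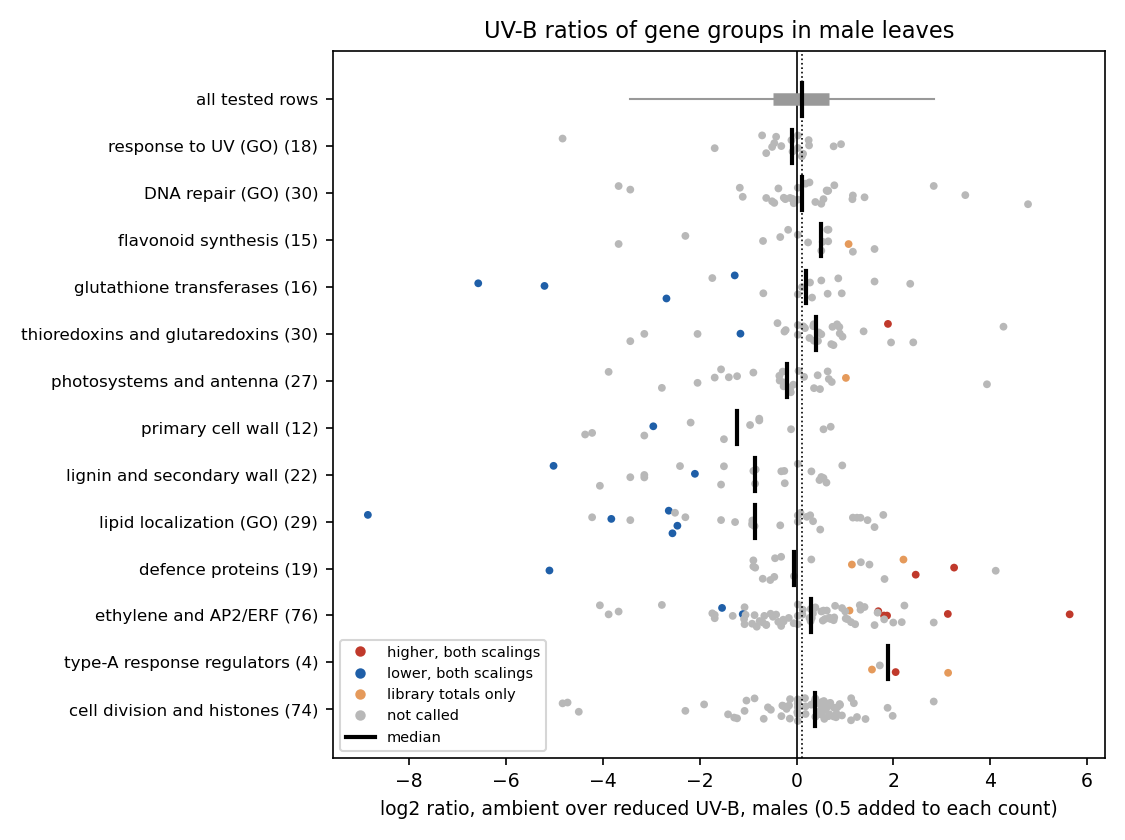
Log2 ratio of ambient over reduced UV-B in male leaves for each tested gene of 13 groups (points, number of genes in brackets, 0.5 added to each count), with the group median as a black bar. The top line shows all tested genes, with a thin bar over the central 95% of them (-3.43 to 2.83), and the dotted line their median of 0.11; the primary wall, lignin and lipid medians of -1.23, -0.85 and -0.87 become -0.88, -0.39 and -0.35 with each 0 taken as 3 counts, and the lignin median is 0.31 over its 5 members with at least 100 counts.

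Photosynthesis genes of the nucleus held few calls. The 16 tested antenna genes, which bind chlorophyll and pass on light energy, held no call and had a median log2 ratio of -0.01. Lhcb1 (Potri.005G239300.1) had 6631 counts under reduced and 8812 under ambient UV-B, a ratio of 0.44 (0.39 to 0.48). In females it was 5852 and 4565. Plastocyanin (Potri.005G246100.1), the copper protein that carries electrons to photosystem I, had 1202 and 1955 counts in males. A gene annotated to photosystem II without a protein description, Potri.011G142300.1, rose from 279 to 818 counts and was called higher in females with 47 and 385.

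Several of the genes that fell are described like plastid-encoded proteins. They were put side by side from their descriptions after the values were seen, with no fixed list, and say nothing of such genes as a group. The plastid genome encodes part of the organelle's ribosome, its RNA polymerase and its thylakoid complexes. Ribosomal protein S3 (Potri.012G047500.1) fell from 1446 to 197 counts, a log2 ratio of -2.85 (-3.07 to -2.63). S7 (Potri.013G138900.1) fell from 897 to 223 and S2 (Potri.013G142600.1) from 909 to 372. Females had 948 and 562, 631 and 324, and 659 and 426 counts of the same 3 genes, and none was called there.

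RNA polymerase beta (Potri.013G142200.1) fell from 197 to 56 counts and beta'' (Potri.009G133700.1) from 310 to 114. The Ycf1-like gene Potri.011G073900.1 fell from 133 to 18 and Potri.006G084100.1 from 120 to 53. The ATP synthase C chain (Potri.005G154900.1), part of the proton channel of the complex, fell from 1014 to 330 counts. The large subunit of Rubisco (Potri.T005800.1), the carbon-fixing enzyme, fell from 246 to 102. The acetyl-CoA carboxylase beta subunit (Potri.013G141100.1), which serves fatty acid synthesis, fell from 357 to 141.

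A proteolytic subunit of the Clp protease (Potri.017G140600.1) fell from 207 to 70 counts. The NAD(P)H-quinone oxidoreductase subunit K (Potri.013G141300.1) fell from 271 to 116. Of 2 genes described as NADH dehydrogenase subunit 6, a name used in both plastids and mitochondria, Potri.004G195500.1 fell from 1397 to 664 counts and Potri.013G075100.1 from 306 to 146. The first of them went from 263 to 325 in females, and the sexes were called different.

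Not all genes of this kind were lower. Ribosomal protein L2 (Potri.013G143300.1) had 2224 CPM under reduced and 1852 under ambient UV-B, a log2 ratio of -0.26 without a call. A photosystem I apoprotein A1 gene (Potri.002G211800.1) had 57 and 114 counts and another S3 gene (Potri.002G206800.1) had 53 and 106, both called higher with library totals only. The libraries were made from oligo-dT cDNA, and a tag that occurs both in the plastid genome and in a nuclear copy cannot be assigned to either.

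Enzymes of specialised metabolism went both ways. Of 92 tested cytochrome P450 genes, oxidases of many plant compounds, 1 rose and 3 fell, with a median log2 ratio of 0.03. Over all tested genes the shares were 1.09% and 1.46%, and 2.48% of described genes fell. Potri.016G031800.1 rose from 73 to 171 counts and went from 213 to 135 in females. Potri.006G141400.1 fell from 126 to 24, Potri.001G167900.1 from 196 to 76 and Potri.007G115500.1 from 231 to 111. The last of these was called higher in females, with 13 and 47 counts. The most abundant P450 in males, Potri.014G037900.1, had 647 and 628 counts, while females had 171 and 5. The family GT8 glycosyltransferase Potri.008G192600.1 rose from 27 to 118 counts and was the only one of 32 tested glycosyltransferases called.

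Transport genes held a few single changes. The TIP aquaporin Potri.016G098200.1, a water channel of the vacuole membrane, rose from 164 to 462 counts. The PIP aquaporin Potri.009G128200.1, of the plasma membrane subfamily, fell from 34 to 5. The 15 tested aquaporins had a median log2 ratio of 0.29. Of 146 tested transporters, the amino acid transporter Potri.004G111400.1 alone rose with both scalings, from 32 to 103 counts, and 4 more were called higher with library totals only.

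Protein turnover, signalling and gene silencing held few calls. F-box proteins choose the targets of ubiquitin ligases. Of 63 tested, Potri.012G099400.1 rose from 3 to 26 counts and Potri.014G162600.1 from 27 to 76, and 0 fell. Of all tested genes 1.09% rose and 1.46% fell. CBL-interacting protein kinase 15 (Potri.019G128100.1), of a family that relays calcium signals, had 267 and 600 counts and lost its call with TMM. Potri.006G253500.1, an RNA-dependent RNA polymerase of a family that makes double-stranded RNA for silencing, fell from 85 to 7 counts. In females it went from 3 to 38, and the sexes were called different.

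The 74 tested genes of cell division and chromatin held no call with library totals and 3 lower calls with TMM. Their median log2 ratio was 0.39, above the 0.11 of all tested genes. Of 41 genes with histone in their description, which take in enzymes that modify histones, 33 had a ratio above 0 and 8 below when scaled by library totals. Over all 10741 tested genes these numbers were 6424 and 4317. Over members with at least 100 counts, 24 in all, the median was 0.55, against 0.32 for the 3478 tested genes with as many counts.

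Some abundant genes have no description, and those with the largest gains and losses in tags are given here. Potri.T131500.1 had 2878 counts under reduced and 5534 under ambient UV-B, and its log2 ratio of 0.97 lay just under the 2-fold limit. In females it went from 840 to 142. Potri.001G394700.1 had 2233 and 4731 counts, a log2 ratio of 1.11 that lost its call with TMM, and 1053 and 512 in females. Potri.001G400200.1 had 8720 and 6316 counts, a ratio of -0.44, and 5347 and 11726 in females. For all 3 the sexes were called different. Potri.017G098000.1, with no annotation at all, is not one of these largest losses and was named after its values were seen. It fell from 220 to 14 counts, while females had 241 and 249.

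The female libraries show which of the male changes were shared. In females 157 genes were called higher under ambient UV-B (1.46%) and 163 lower (1.52%). Of the 117 genes that rose in males, 79 had a female ratio above 0 and 11 were called higher in females. Among all tested genes the female ratio was above 0 in 52.3%. Of the 157 that fell in males, 91 had a female ratio below 0, against 47.7% of all tested genes, and 19 were called lower in females. The median female log2 ratio was 0.23 over the genes that rose in males and -0.28 over those that fell.

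Tested directly with library totals, the male ratio was called higher than the female ratio for 217 of the 10741 genes (2.02%) and lower for 111 (1.03%). With TMM factors it was higher for 126 and lower for 157, so which side was larger turned with the scaling. Of the 117 that rose in males, 37 had a male ratio called higher than the female, and of the 157 that fell, 51 had one called lower. Since the male ratio chose these genes, such counts are a description. Changes found in both sexes included metallothionein 3a, the glutaredoxin, caffeoyl-CoA O-methyltransferase and 4 of the lipid localization genes. Changes in opposite directions included polyphenol oxidase, the Kunitz inhibitor Potri.019G124400.2, GSTU20 and the RNA-dependent RNA polymerase.

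**Figure D4:**
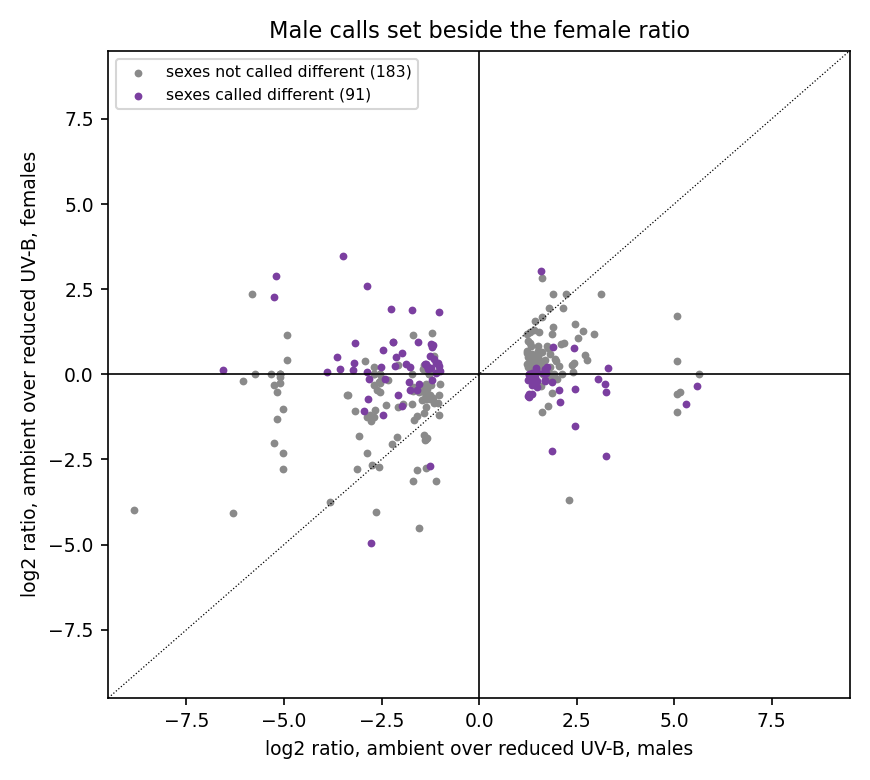
Log2 ratio of ambient over reduced UV-B in females (vertical axis) against males (horizontal axis) for the 274 genes that rose or fell in males, with 0.5 added to each count. The 91 purple genes had male and female ratios called different and the 183 grey genes did not; on the dotted diagonal the ratios are equal.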

How the data were processed

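Leaf RNA of 4 pools was measured by digital gene expression, in which oligo-dT cDNA is cut with NlaIII and MmeI to leave one 17 bp tag a transcript, with 15 PCR cycles, per the labels' protocols. The authors deposited raw tag counts per gene model with the library totals in the column headers, per the file headers. Columns headed TPM hold CPM, tags scaled to a total of 1000000 without a length correction: 100% of the deposited values were within 0.01 of the recomputed CPM. Genome build and tag assignment: not given in the sources used here. The smallest count above 0 is 2, so a listed 0 may stand for 0 or 1 tag.

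Genes with at least 10 counts over the 4 libraries were tested with an exact two-sided conditional binomial test given the library totals (Python 3.11.15, scipy 1.17.1), adjusted by Benjamini-Hochberg over all tested genes, and called at an adjusted p below 0.001 and at least 2-fold. Male and female ratios were compared by an exact conditional test of the 4 counts and the same limits. A gene at 0 in 1 library is set against 3 counts there, or 0.70 and 0.71 CPM in the male libraries. Its counting interval can allow a smaller difference. Medians use log2 ratios with 0.5 added to each count, unless a 0 is said to be taken as 3 counts. The male medians over the genes that rose and over those that fell also take each 0 as 3 counts. TMM factors came from edgeR 4.0.16 and size factors from DESeq2 1.42.0. The tests were tried on simulated counts that held counting error only. The simulation had no spread between pools and no difference between scalings, so it does not bear on either. Tags were copied by PCR, so intervals and floors cover counting error only.

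The members, lists and thresholds were chosen with earlier results of these data known. By rule the text names described genes called with both scalings that have at least 50 counts in the higher male library, those with the largest gains and losses in tags, and the most abundant member of each of 40 lists with tested members, of which it prints those that bear on a result. Members of response regulator, polyphenol oxidase, Kunitz, laccase and ontology groups, and genes of few counts that fill out a list, were named after their values were seen. The lists for the circadian clock and for DNA repair by description had 0 tested members. Alternatives were other scalings and totals, filters, call rules and an assumed spread between pools.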

Additional observations from a re-analysis of the deposited data

Results flagged for a closer look

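For 25 of the named genes the male and female UV-B ratios were called different with library totals, TMM factors and DESeq2 size factors. Values are the log2 male ratio minus the log2 female ratio, with library totals. It was higher in males for 11 of them. Among these were polyphenol oxidase Potri.011G108300.1 at 5.65, the Kunitz inhibitor Potri.019G124400.2 at 3.97, the type-A response regulator Potri.006G041100.1 at 2.51 and the AP2/ERF factor Potri.001G397200.1 at 1.90. The P450 genes Potri.014G037900.1 and Potri.016G031800.1 stood at 4.92 and 1.88, pectinesterase Potri.014G149700.1 at 1.45, the histone acetyltransferase Potri.017G047600.2 at 1.32 and coniferylaldehyde 5-hydroxylase Potri.007G016400.1 at 1.30. The undescribed genes Potri.T131500.1 and Potri.001G394700.1 stood at 3.51 and 2.13.

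It was lower in males for 14. GSTU20 Potri.008G175000.1 stood at -8.08, the RNA-dependent RNA polymerase Potri.006G253500.1 at -6.97, the P450 gene Potri.007G115500.1 at -2.87, the NAC factor Potri.019G031400.1 at -2.52 and XTH-6 Potri.006G071200.1 at -1.89. Of the genes described like plastid-encoded proteins, the Ycf1-like Potri.011G073900.1 stood at -2.68, ribosomal proteins S3 Potri.012G047500.1 and S7 Potri.013G138900.1 at -2.12 and -1.04, acetyl-CoA carboxylase beta Potri.013G141100.1 at -1.46, NADH dehydrogenase subunit 6 Potri.004G195500.1 at -1.37, the Clp protease subunit Potri.017G140600.1 at -1.25, the ATP synthase C chain Potri.005G154900.1 at -1.14 and oxidoreductase subunit K Potri.013G141300.1 at -1.04. The undescribed gene Potri.001G400200.1 stood at -1.60. Each value compares 4 pooled libraries and has no replicate check.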

How the results depend on the processing

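Genes called higher in males numbered 264 with library totals, 117 with TMM factors, 125 with DESeq2 size factors and 117 with the summed listed counts as totals. The test without the fold limit called 574 higher. A coefficient of variation of 0.3 assumed between pools left 0 higher and 5 lower, namely GSTU20, EF1Bgamma2, Potri.017G098000.1, Potri.018G025900.1 and Potri.018G126000.1. The 157 lower calls stayed within 1.5 times that number under every other setting tried (116 to 232). Genes with the male ratio above the female numbered 217, and 126 and 118 with TMM and DESeq2 factors. Those with the male ratio below the female numbered 111, and 157 and 161 with the same factors. The cause of these moves was not tested, but the 2 factor sets shift male log2 ratios by -0.21 and -0.20. Of 88 named genes, 76 kept direction and side of the threshold under either factor set, 6 lost their call, 2 gained one and 4 changed sign. The last are phenylalanine ammonia-lyase Potri.016G091100.1 (TMM -0.05, DESeq2 -0.03), type II peroxiredoxin Potri.018G083500.1 (-0.06, -0.04), ammonium transporter Potri.010G063500.1 (-0.17, -0.15) and copper chaperone Potri.010G236500.1 (-0.09, -0.07), none called. No paired analysis was possible because each group has 1 library, which also prevents leaving out a replicate. Depth limits genes under 30 counts, of which 0.224% were called in each direction.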
